A study of Mus musculus with 29 samples.

Results

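The genes of intermediate progenitors and of the commitment to neurogenesis were followed in the embryonic mouse cortex. They were 10 genes, Eomes, Neurog1, Neurog2, Neurod1, Insm1, Btg2, Tob1, Gadd45g, Dll3 and Mfng, of 38355 genes in the count tables of untreated cortex and 48709 in those of treated cortex. All 10 were in both sets of tables, and all 10 passed the filter on low counts in both. They were taken by name and not by a threshold on these values, but with earlier results of these data known.

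In the developing cortex, radial glia divide at the ventricle and give rise to intermediate progenitors, also called basal progenitors, which divide away from the ventricle and produce most excitatory neurons. The step is driven by proneural transcription factors. Neurog2 and Neurog1 start the program, Eomes (also called Tbr2) and Insm1 mark and specify the intermediate progenitor, and Neurod1 carries the program into the young neuron. Btg2, Tob1 and Gadd45g are known as brakes on proliferation, and Dll3 and Mfng act in Notch signalling, through which committed cells keep their neighbours in the progenitor state.

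The series asked what the BAF chromatin remodelling complex does late in cortical neurogenesis. RNA-seq was made from C57BL/6J cortex at E17.5 in 5 groups, 19 libraries in all. The untreated groups were 4 libraries labelled C and 3 labelled M. The treated groups were 4 WT vehicle, 4 BAF dcKO_hGFAP-Cre vehicle and 4 BAF dcKO_hGFAP-Cre Wnt inhibitor libraries, and H3K27me3 was mapped by ChIP-seq in 4 C and 4 K libraries. The dcKO embryos carried Baf155 fl/fl and Baf170 fl/fl with the hGFAP-Cre transgene, which deletes Smarcc1 (BAF155) and Smarcc2 (BAF170) only in cells where the hGFAP promoter has been active, first in the medial pallium and later in the dorsal and lateral pallium. The controls were littermates. The deposited genotype field reads dcKO for every untreated and ChIP library, C included, so those groups are given here by the letters of their titles, whose numbers match the control (C) and dcKO (M, K) samples that the study describes. The Wnt inhibitor was ICG-001, injected into pregnant mice, and no WT library had the inhibitor.

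Total counts were 11946658 to 28391046 per untreated library and 12514443 to 26600594 per treated library, and M replicate 2 was the shallowest. Levels are given as CPM, a gene's count scaled to a common library size, after TMM normalization. Levels are of whole cortex, so fewer cells of a type and less RNA per cell cannot be told apart. Smarcc1, a deleted gene, lay at 247 to 269 CPM in C and at 245, 128 and 135 CPM in M replicates 2, 3 and 4. It lay at 245 to 299 CPM in WT vehicle, at 136, 242, 133 and 138 CPM in dcKO vehicle, and at 214, 252, 140 and 173 CPM in dcKO Wnt inhibitor. The libraries labelled M replicate 2, dcKO vehicle replicate 2 and dcKO Wnt inhibitor replicate 2 thus held Smarcc1, and also Smarcc2, at 0.9 or more of the lowest control, which goes against their labels. They are called the control-level libraries below, and the tests of the 10 genes that rest on them are given with and without them. That choice was made after seeing the data. The library labelled dcKO Wnt inhibitor replicate 1 lay at 0.876 of the lowest control for Smarcc1 and 0.97 for Smarcc2.

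The untreated and the vehicle-treated libraries were not independent of each other by their values. Across 14030 genes, deviations from the group mean were correlated at r = 0.17 to 0.61 between C and WT vehicle libraries of the same number, and at -0.43 to 0.25 between those of different numbers. Between M and dcKO vehicle, r was 0.64 to 0.88 for the same number and -0.76 to 0.54 otherwise. All 7 untreated libraries were closest to the vehicle library of their own number. The labels give no shared embryo, and the source of the likeness was not tested. The vehicle comparison is therefore not a separate replication of the untreated one.

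The promoters of 4 of the genes are shown, because H3K27me3 lay over the start of Eomes and Neurog1 and no peak lay at Btg2 or Tob1. The 250 bases before the start are from RefSeq on GRCm38.p6, the build also called mm10, written 5′ to 3′ with CpG dinucleotides in capitals. Of the 10 genes, 8 had a promoter entry. By the GENCODE M21 gene models on mm10, Eomes lay at chr9:118478212-118486132 (plus strand), Neurog1 at chr13:56250478-56252163 (minus), Btg2 at chr1:134075170-134079120 (minus), Tob1 at chr11:94211454-94215495 (plus), Dll3 at chr7:28293553-28302238 (minus) and Mfng at chr15:78755882-78773475 (minus).
Eomes promoter, chr9:118477939-118478188, plus strand: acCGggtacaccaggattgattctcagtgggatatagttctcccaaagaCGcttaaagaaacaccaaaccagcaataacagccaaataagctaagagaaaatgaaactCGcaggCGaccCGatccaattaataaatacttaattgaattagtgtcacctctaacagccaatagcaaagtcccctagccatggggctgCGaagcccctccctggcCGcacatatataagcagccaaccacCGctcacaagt
Neurog1 promoter, chr13:56252181-56252430, minus strand: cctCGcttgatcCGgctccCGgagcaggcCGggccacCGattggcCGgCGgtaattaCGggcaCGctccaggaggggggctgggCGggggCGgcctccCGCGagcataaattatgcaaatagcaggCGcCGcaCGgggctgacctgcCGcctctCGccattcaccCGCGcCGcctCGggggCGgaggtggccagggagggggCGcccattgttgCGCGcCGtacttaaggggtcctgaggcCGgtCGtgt
Btg2 promoter, chr1:134079156-134079405, minus strand: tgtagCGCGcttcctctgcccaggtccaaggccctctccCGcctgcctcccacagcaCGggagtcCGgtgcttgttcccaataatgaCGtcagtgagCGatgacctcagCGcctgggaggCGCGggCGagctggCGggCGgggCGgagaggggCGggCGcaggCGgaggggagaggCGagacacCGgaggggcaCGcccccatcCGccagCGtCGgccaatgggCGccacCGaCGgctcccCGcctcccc
Tob1 promoter, chr11:94211204-94211453, plus strand: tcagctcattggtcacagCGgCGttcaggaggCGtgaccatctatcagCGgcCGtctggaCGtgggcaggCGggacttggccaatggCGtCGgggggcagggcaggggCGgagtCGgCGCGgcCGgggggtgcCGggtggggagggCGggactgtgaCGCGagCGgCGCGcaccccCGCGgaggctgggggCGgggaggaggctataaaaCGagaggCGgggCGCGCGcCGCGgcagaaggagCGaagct
The CpG count in these 250 bases was 8 at Eomes, 29 at Neurog1, 27 at Btg2 and 32 at Tob1, against a median of 6 over 32851 RefSeq promoters. The other 4 held 8 (Neurog2), 10 (Dll3), 16 (Gadd45g) and 22 (Neurod1). CpG number therefore did not separate the genes with the mark from those without it. The E-box, to which Neurog and Neurod factors bind, was searched as CANNTG, which reads the same on both strands. It was present at Neurod1 (1), Dll3 (2) and Gadd45g (3), and in 66.2% of all promoters. The TATA box TATAAA, searched on both strands, was present at Tob1 and Gadd45g and in 12.4% of all promoters.

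Per kilobase of exon, the genes spanned a wide range of levels in control cortex. In the C libraries, Insm1 (27.5 ± 4.33 CPM per kb, SD, n = 4) and Eomes (27.4 ± 6.08) were highest, followed by Neurod1 (23.1 ± 3.0) and Neurog2 (21.2 ± 5.81). Tob1 (14.5 ± 0.791), Btg2 (12.3 ± 1.65), Gadd45g (10.8 ± 2.27) and Mfng (9.77 ± 2.13) formed a middle tier, whose neighbours overlapped in their libraries, and no library of Neurog2 overlapped one of Tob1. Dll3 (2.45 ± 0.325) and Neurog1 (0.273 ± 0.199) were lowest, each apart from the gene above it. In WT vehicle Insm1 (35.3 ± 2.71) was highest and apart from the next gene, Neurog2 (25.04 ± 5.09), but 1 library of Neurod1 reached its range, and Dll3 (3.44 ± 0.572) and Neurog1 (0.354 ± 0.158) were again the lowest 2. Neurog1 rested on 3 to 35 reads in each library, and with all libraries its log2 fold change had the largest SE of the 10 in each comparison.

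**Figure D1:**
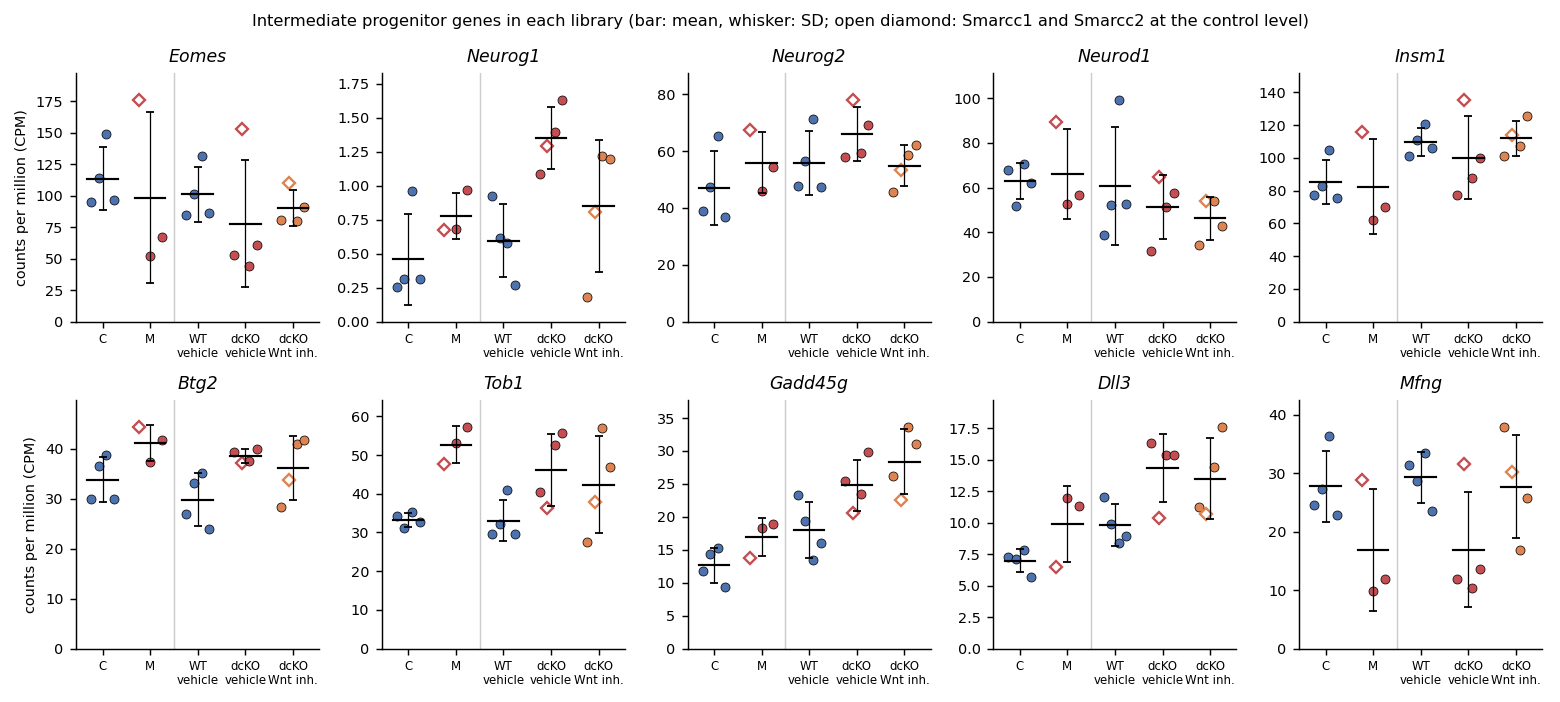
Level of each of the 10 genes (y axis, CPM, linear from 0) in every library of the 5 RNA groups (x axis). Points are libraries, the bar is the mean and the whisker the SD. Open diamonds are the 3 control-level libraries, which sit highest in Eomes in the M, dcKO vehicle and dcKO Wnt inhibitor groups, at 176, 153 and 110 CPM.

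The first comparison asked how the genes differed between untreated M and C cortex. No gene of the 10 passed an adjusted p of 0.05 with edgeR's quasi-likelihood test (0 of 10 in either direction, against 0.00634% of 15770 genes higher and 0% lower). The deleted genes did not pass in this fit either (edgeR adjusted p = 0.251 for Smarcc1 and 0.252 for Smarcc2). The lack of a call therefore does not show that the 10 genes were unchanged. With an unadjusted p below 0.05 in that test, 4 of the 10 lay higher (Btg2, Tob1, Gadd45g and Dll3) and 0 lower, against 7.91% and 8.14% of all genes. DESeq2 called 1 gene, Tob1, at an adjusted p of 0.05, against 1.63% of all genes higher and 1.89% lower. The median log2 fold change was 0.26 over the 10 genes and 0.00 over all genes. The 4 genes were all 3 of the proliferation brakes and 1 of the 2 Notch genes, and 0 of the 5 transcription factors were among them.

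Tob1, an antiproliferative partner of the mRNA deadenylation machinery, gave the most even difference. Its level was 34.2, 31.1, 35.2 and 32.6 CPM in C and 47.7, 53.1 and 57.3 CPM in M. Every M library, the control-level one included, lay above every C library, as 6.96% of all genes did, and 6.21% lay below in the same way. The log2 fold change was 0.67 ± 0.08 (SE), a 1.59-fold difference, with an edgeR unadjusted p of 1.06e-05 and an adjusted p of 0.056. Over 11 alternatives the adjusted p ran from 1.12e-08 to 0.405, and it passed in 3 of them. It passed with DESeq2 (1.12e-08) and with no filter on low counts (0.00137, where 0.338% of 26057 genes were called higher and 0.253% lower). Without M replicate 2 it passed too (0.000245), at a log2 fold change of 0.73.

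Eomes, the T-box factor that defines intermediate progenitors, split the M libraries. It was at 95.1, 114, 149 and 96.4 CPM in C and at 176, 52.5 and 67.0 CPM in M replicates 2, 3 and 4. One M library was thus above all controls and the other two below all of them. The log2 fold change was -0.23 ± 0.43 with all libraries (edgeR adjusted p = 0.84). Without M replicate 2 it was -0.93 ± 0.21, or 0.525 of the C level (edgeR adjusted p = 0.032).

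Mfng, a Fringe glycosyltransferase that modifies Notch receptors, also split the M libraries, with replicate 2 inside the range of C and replicates 3 and 4 below it. It was at 24.5, 27.3, 36.4 and 22.8 CPM in C and at 28.8, 9.85 and 11.8 CPM in M. The log2 fold change was -0.77 ± 0.38 with all libraries (edgeR adjusted p = 0.38) and -1.36 ± 0.19 without M replicate 2 (edgeR adjusted p = 0.002), 0.39 of the C level. Dll3, a divergent Delta ligand that acts within the cell, went the other way. It was at 7.31, 7.13, 7.79 and 5.65 CPM in C and at 6.46, 11.9 and 11.3 CPM in M, with the control-level library inside the range of C. Its log2 fold change was 0.53 ± 0.20 with all libraries (edgeR adjusted p = 0.26) and 0.74 ± 0.14 without M replicate 2 (edgeR adjusted p = 0.00696).

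Without M replicate 2, edgeR therefore called 4 of the 10 genes, Tob1 and Dll3 higher and Eomes and Mfng lower, against 5.57% of 16024 genes called higher and 6.88% called lower. Over the 11 alternatives the adjusted p ran from 0.0318 to 0.998 for Eomes, 0.002 to 0.794 for Mfng and 0.00696 to 0.69 for Dll3, and only the fit without M replicate 2 called these 3. The other 6 did not pass. Among them, Insm1, a zinc finger factor of basal progenitors, was at 75.8 to 105 CPM in C and at 116, 61.8 and 69.8 CPM in M, with a log2 fold change of -0.37 ± 0.13 without M replicate 2 (edgeR adjusted p = 0.0995). Gadd45g, a growth arrest gene, was at 9.35 to 15.3 CPM in C and at 13.7, 18.4 and 18.9 CPM in M, with 0.55 ± 0.17 (edgeR adjusted p = 0.0621). For Neurog2, Neurod1, Btg2 and Neurog1 the log2 fold changes without that library were 0.09, -0.21, 0.22 and 0.78, and the edgeR adjusted p values were 0.26 or more.

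The second comparison put dcKO vehicle against WT vehicle. No gene of the 10 passed an adjusted p of 0.05 with edgeR (0 of 10, against 0.00611% of 16372 genes higher and 0% lower) or with DESeq2 (0.519% higher and 0.214% lower). Smarcc1 and Smarcc2 did not pass with edgeR here either (adjusted p = 0.289 and 0.337), so this too does not show unchanged levels. At an unadjusted p of 0.05 with edgeR, 5 were higher (Neurog1, Btg2, Tob1, Gadd45g and Dll3), against 4.14% of all genes, and 1 was lower (Mfng), against 5.33%. The median log2 fold change was 0.31 over the 10 genes and 0.00 over all genes. Both groups were apart for 2 of the 10, Neurog1 and Btg2, both higher, against 3.08% of all genes higher and 2.58% lower.

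Neurog1, a proneural factor, was at 0.921, 0.614, 0.579 and 0.271 CPM in WT vehicle and at 1.08, 1.29, 1.39 and 1.63 CPM in dcKO vehicle. All 4 dcKO vehicle libraries, replicate 2 among them, were above all 4 WT libraries. The log2 fold change was 1.198 ± 0.44, a 2.29-fold difference, on 7 to 18 reads in WT and 24 to 35 in dcKO (edgeR adjusted p = 0.39). Btg2, a transcriptional cofactor that marks neurogenic divisions, was at 26.9, 33.2, 35.2 and 23.9 CPM in WT vehicle and at 39.4, 37.2, 37.5 and 39.95 CPM in dcKO vehicle. The dcKO libraries were nearly level with one another, and the log2 fold change was 0.37 ± 0.14 (edgeR adjusted p = 0.41).

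In Eomes, dcKO vehicle replicate 2 stood apart from the rest of its group, as did M replicate 2, whose deviations it shared (r = 0.88). The level was 84.9, 101, 132 and 86.6 CPM in WT vehicle and 53.2, 153, 44.5 and 60.6 CPM in dcKO vehicle. Mfng was at 31.4, 28.7, 33.5 and 23.4 CPM in WT vehicle and at 11.9, 31.5, 10.4 and 13.7 CPM in dcKO vehicle. In both genes the other 3 dcKO libraries lay below every WT library. With all libraries the log2 fold changes were -0.37 ± 0.32 for Eomes (edgeR adjusted p = 0.83) and -0.79 ± 0.32 for Mfng (edgeR adjusted p = 0.45).

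Without the control-level libraries, edgeR called 3 of the 10 genes, against 1.57% of 16547 genes higher and 2.36% lower. Eomes was lower by 0.94 ± 0.16 on the log2 scale, at 0.522 of the WT level (edgeR adjusted p = 0.0105), and Mfng was at 0.41 of it (edgeR adjusted p = 0.0144). Dll3 was 1.59-fold higher (edgeR adjusted p = 0.0499). Over the 20 alternatives the adjusted p ran from 0.0083 to 1 for Eomes, 0.00236 to 0.915 for Mfng and 0.0199 to 0.857 for Dll3, with 3, 3 and 2 passing. Dll3 was at 12.1, 9.88, 8.35 and 8.95 CPM in WT vehicle and at 16.3, 10.3, 15.4 and 15.3 CPM in dcKO vehicle. Its call was lost when only dcKO vehicle replicate 2 was left out, a fit in which Eomes and Mfng alone passed, against 1.34% of 16526 genes higher and 2.06% lower.

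The remaining genes did not pass in either of these fits, with all libraries or without the control-level ones. Tob1 was at 29.7, 32.1, 40.9 and 29.7 CPM in WT vehicle and at 40.5, 36.3, 52.5 and 55.7 CPM in dcKO vehicle, where the groups overlapped, and its log2 fold change was 0.49 ± 0.21 with all libraries. When dcKO Wnt inhibitor replicate 1 was also left out, which removes no vehicle library, its log2 fold change stayed at 0.59, its SE went from 0.22 to 0.15 and it passed (edgeR adjusted p = 0.0495), as did Dll3, Eomes and Mfng, 4 of the 10 against 2.47% of 16815 genes higher and 3.34% lower. Gadd45g had 0.45 ± 0.18, Neurog2 0.25 ± 0.15, Insm1 -0.13 ± 0.15 and Neurod1 -0.24 ± 0.27 on the log2 scale with all libraries. Leaving out the control-level libraries moved Insm1 to -0.31 ± 0.12 (edgeR adjusted p = 0.20).

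**Figure D2:**
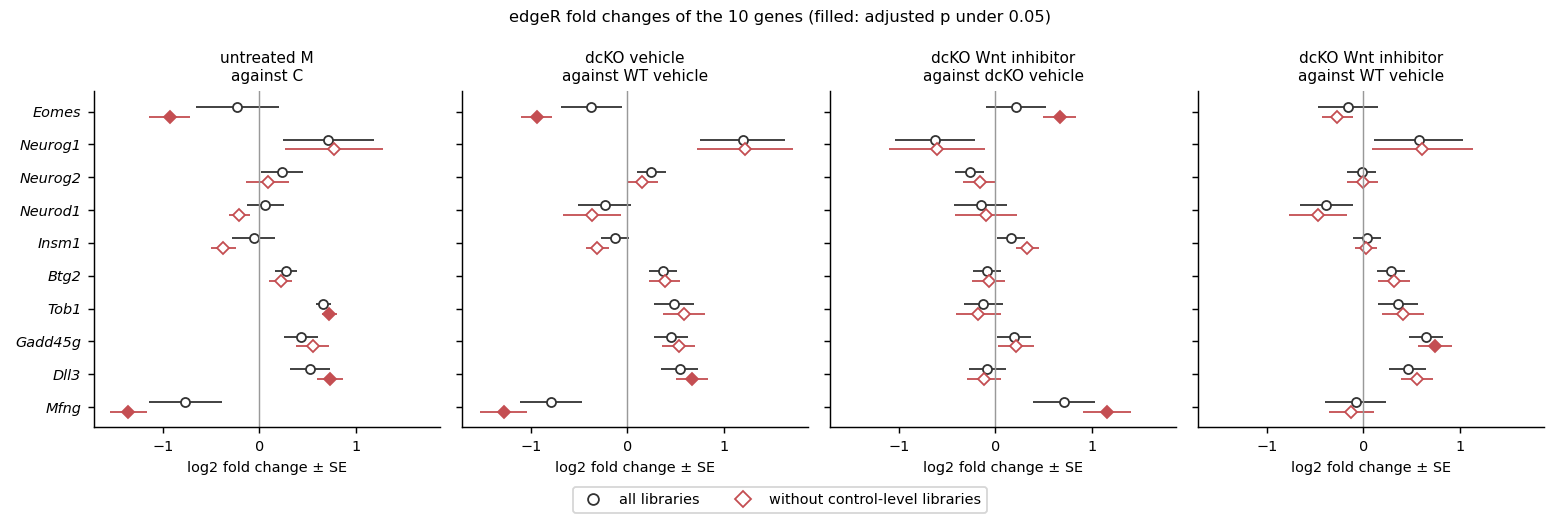
Log2 fold change (x axis, ± SE) of the 10 genes (rows) in each of the 4 comparisons (panels), from edgeR. Black circles are fits with all libraries and red diamonds are fits without the 3 control-level libraries, and filled symbols have an adjusted p under 0.05. No black circle is filled, and the red diamonds of Eomes and Mfng are filled on the left of 0 in both knockout comparisons.

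The knockout differences in the vehicle and untreated experiments were compared in a single fit of all 19 libraries. None of the 10 genes passed for the difference of the differences (0 of 10 with edgeR and with DESeq2, against 0% of 16156 genes in either direction), and 0 had an unadjusted p under 0.05, against 0.254% of genes higher and 0.248% lower. The estimates ran from -0.30 ± 0.38 (Neurod1) to 0.49 ± 0.69 (Neurog1) on the log2 scale. The fit treats libraries of the same number as independent. With those libraries as 1 block, an alternative chosen after seeing the data, it again called 0. Deviations of same-numbered libraries were correlated at r = 0.17 to 0.61 in the controls and 0.64 to 0.88 in the knockouts. The knockout differences of the experiments therefore had little room to differ. The lack of a call was nearly set in advance by this likeness and does not show agreement of separate experiments.

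The third comparison asked what the Wnt inhibitor changed within dcKO cortex. No gene of the 10 passed with edgeR (0 of 10, against 0.0428% of 16372 genes higher and 0.0122% lower) or with DESeq2 (1.06% higher and 1.01% lower). With edgeR, 1 had an unadjusted p under 0.05, Mfng, which was higher, against 7.85% of all genes higher and 8% lower. The groups were apart for 0 of the 10, against 4.48% of all genes higher and 4.03% lower. Mfng was at 37.9, 30.2, 16.8 and 25.8 CPM with the inhibitor and at 11.9, 31.5, 10.4 and 13.7 CPM with vehicle. Its log2 fold change was 0.71 ± 0.32, with an edgeR adjusted p of 0.30. Among the inhibitor libraries, replicate 3 was lowest and replicate 4 next in both Mfng and Smarcc1, and replicates 1 and 2 were in opposite order. Eomes did not follow the order of Smarcc1, with 91.0 CPM in replicate 4 and 80.4 CPM in replicate 1. The part of the Smarcc1 level in these values was not tested.

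Without the control-level libraries, edgeR called Eomes and Mfng higher with the inhibitor, 2 of the 10 genes, against 2.37% of all genes higher and 3.72% lower. Leaving out dcKO vehicle replicate 2 alone gave 1, Mfng, against 0.635% higher and 0.454% lower. Eomes was at 80.4, 79.8 and 91.0 CPM in the 3 inhibitor libraries kept and at 53.2, 44.5 and 60.6 CPM in the 3 vehicle libraries kept. Its log2 fold change was 0.67 ± 0.17 (edgeR adjusted p = 0.0433) and that of Mfng was 1.16 ± 0.25 (edgeR adjusted p = 0.0299). When dcKO Wnt inhibitor replicate 1 was left out as well, neither passed (edgeR adjusted p = 0.105 for Eomes and 0.0811 for Mfng), in a fit that called 0.303% of all genes higher and 0.72% lower. Over the 20 alternatives the adjusted p ran from 0.0432 to 0.992 for Eomes and 0.0299 to 0.666 for Mfng. Smarcc1 was 214, 140 and 173 CPM in the 3 inhibitor libraries kept at the 0.9 limit and 133 to 138 CPM in the 3 vehicle libraries, and the part of this difference in the result was not tested.

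Markers of other cell types were also compared between the inhibitor group and the vehicle groups. The summed level of 7 choroid plexus genes was 850, 164, 485 and 12.3 CPM in inhibitor replicates 1, 2, 3 and 4. It was 7.08 to 11.6 CPM in dcKO vehicle and 6.78 to 131 CPM in WT vehicle. Ttr was at 4.03 to 803 CPM with the inhibitor. The summed level of 10 genes of ventral progenitors and interneurons was 756 to 982 CPM with the inhibitor and 582 to 709 CPM in WT vehicle. In dcKO vehicle it was 818, 878 and 819 CPM in replicates 1, 3 and 4, inside the inhibitor range, and 521 CPM in control-level replicate 2. The log2 fold changes of these 10 between inhibitor and WT vehicle ran from 0.11 to 1.70 with all libraries, and 0 passed with edgeR. When the control-level libraries were left out, 5 of the 10 passed as higher than in WT vehicle (Dlx1, Dlx5, Dlx6, Gsx2 and Nkx2-1), against 3.92% of all genes, and 2 as higher than in dcKO vehicle (Dlx6 and Nkx2-1), against 2.37%. These are the fits in which Eomes, Mfng and Gadd45g were called. The summed level of 10 genes of microglia, vessels, meninges and blood was 255 to 304 CPM with the inhibitor against 213 to 233 CPM in dcKO vehicle and 202 to 241 CPM in WT vehicle. The genes of this list did not move together. Hbb-bs, of blood, was at 146 to 190 CPM with the inhibitor and at 121 to 127 CPM in dcKO vehicle. The microglia genes Csf1r, Cx3cr1, P2ry12 and C1qa had lower medians with the inhibitor (14.5, 8.45, 2.8 and 5.65 CPM) than in dcKO vehicle (16.2, 11.85, 3.15 and 6.08 CPM). Otx2, a choroid plexus and midbrain factor, was the one gene of the fixed lists that passed with all libraries, 3.12-fold higher with the inhibitor than in WT vehicle (edgeR adjusted p = 0.0464). The part of these markers in the results was not tested.

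Against WT vehicle, the inhibitor-treated dcKO libraries gave no call with edgeR (0 of 10, against 0.0611% of 16372 genes higher and 0.0366% lower), and 2 of the 10, Gadd45g and Dll3, were higher at an unadjusted p of 0.05, against 9.53% of all genes higher and 10.2% lower. The groups were apart for 0 of the 10, against 3.48% higher and 4.02% lower. DESeq2 called 1, Gadd45g, against 2.01% of all genes higher and 2.69% lower. Gadd45g was at 23.3, 19.3, 13.5 and 16.1 CPM in WT vehicle and at 26.3, 22.6, 33.7 and 31.05 CPM with the inhibitor. Only WT replicate 1 and inhibitor replicate 2 crossed. The log2 fold change was 0.65 ± 0.18, a 1.57-fold difference (edgeR adjusted p = 0.105), and the DESeq2 adjusted p was 0.0198. Without the control-level libraries it was 0.74 ± 0.17 (edgeR adjusted p = 0.0243), the one gene of the 10 called, against 3.92% of 16547 genes higher and 6.3% lower. Over 20 alternatives its adjusted p ran from 0.0198 to 0.31, and it passed in 5. Leaving out WT vehicle replicate 1 or inhibitor replicate 2 by itself also brought Gadd45g past the threshold (edgeR adjusted p = 0.0489 and 0.0284), in fits that called 0.607% and 3.39% of all genes higher and 0.517% and 5.35% lower.

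In neither Eomes nor Mfng did the inhibitor group differ from WT vehicle by the test. Eomes was at 80.4, 110, 79.8 and 91.0 CPM and its log2 fold change was -0.16 ± 0.32, and Mfng had -0.08 ± 0.32. Without the control-level libraries, of which inhibitor replicate 2 held the highest Eomes, they were -0.27 ± 0.16 and -0.13 ± 0.23 (edgeR adjusted p = 0.28 and 0.76). Without inhibitor replicate 1 as well they were -0.24 ± 0.19 and -0.45 ± 0.20 (edgeR adjusted p = 0.46 and 0.20). Each of these estimates lay below the WT vehicle level, and none passed. A difference that does not pass does not show that the levels were equal. When dcKO Wnt inhibitor replicates 1 and 2 and dcKO vehicle replicate 2 were left out, Dll3 (0.70), Tob1 (0.65) and Gadd45g (0.84) were each called higher than in WT vehicle by edgeR (adjusted p = 0.0269, 0.0434 and 0.0277), 3 of the 10 against 2.66% of 16815 genes higher and 4.72% lower.

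**Figure D3:**
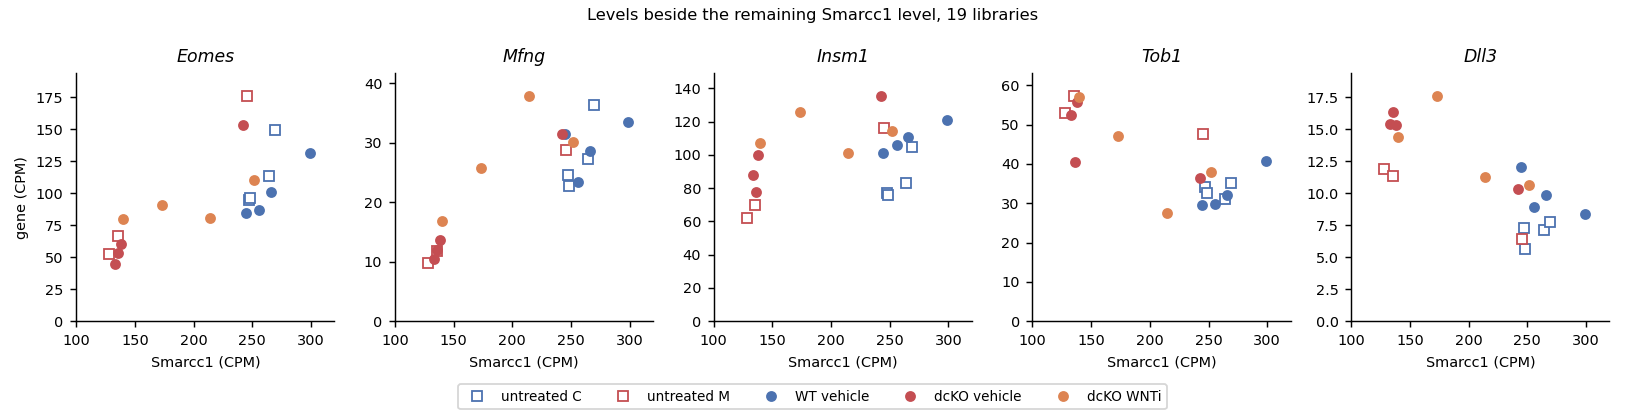
Level of 5 of the genes (y axis, CPM, from 0) against that of Smarcc1 (x axis, CPM, starting at 100) in the 19 RNA libraries. Open squares are untreated and filled circles treated libraries. Where Smarcc1 was under 150 CPM, Mfng was at 9.85 to 16.8 CPM, and the libraries labelled M or dcKO vehicle with Smarcc1 over 240 CPM lie among or above the controls in Eomes, Mfng and Insm1.

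Across libraries the genes did not move as 1 block. Deviations from the group means, on log2(CPM + 1), were compared with those of Eomes over the 19 libraries, 7 of which share a number and much of their deviation with a vehicle library. Pearson's r was 0.93 for Insm1, 0.89 for Mfng, 0.72 for Neurog2 and 0.63 for Neurod1. It was 0.33 for Btg2, -0.23 for Tob1, -0.41 for Gadd45g and -0.70 for Dll3. Over the 16 libraries without the control-level ones, r was 0.91 for Neurog2, 0.82 for Insm1, 0.72 for Btg2, 0.56 for Mfng and 0.49 for Neurod1. It was 0.34 for Tob1, 0.14 for Gadd45g and 0.04 for Dll3, so the 3 negative values were not seen without the control-level libraries. Of 13711 genes compared, the 5 closest to Eomes were Frmd4b (0.97), Pam (0.96), 9630028B13Rik (0.96), Ezr (0.95) and Dct (0.95), with r of 0.72 to 0.86 over the 16 libraries. Among the 10 genes, Insm1 was the closest to Eomes, at rank 16.

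The paralogues of the 10 genes were taken from a list of 19, of which 15 were tested. None passed with all libraries in the 4 comparisons with edgeR. Insm2, the paralogue of Insm1, had a log2 fold change of 1.51 ± 0.36 in M against C and 2.01 ± 0.48 in dcKO vehicle against WT vehicle (edgeR adjusted p = 0.14 and 0.23), from a mean of 1.29 CPM in both control groups. Without the control-level libraries it was called higher in both (edgeR adjusted p = 0.000702 and 0.0148). Neurod6 and Neurod4, relatives of Neurod1, were called lower in both, with log2 fold changes of -1.24 and -3.35 in M and -1.31 and -3.08 in dcKO vehicle. Dll1, Jag1 and Btg1 were called higher in M, by 0.39, 0.46 and 0.31 on the log2 scale, and had 0.38, 0.44 and 0.33 in dcKO vehicle, where they did not pass. Tob2, Neurod2, Tbr1 and Jag2 had log2 fold changes between -0.15 and 0.09 in both comparisons and both fits. Without the control-level libraries, Lfng, Dll4, Rfng, Gadd45a and Gadd45b had 0.42, 0.38, 0.11, 0.003 and -0.19 in M. They had 0.24, 0.39, 0.06, -0.31 and -0.23 in dcKO vehicle, and none passed. With the inhibitor, that fit called Gadd45a higher than in dcKO vehicle, by 0.88 (edgeR adjusted p = 0.031). It called Insm2 higher and Neurod4 lower than in WT vehicle.

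In the counts of list genes that follow, the fit without M replicate 2 called 5.57% of all genes higher and 6.88% lower, and the vehicle fit without the control-level libraries 1.57% and 2.36%. Of 15 other genes of intermediate progenitors and commitment, none passed with all libraries in any comparison with edgeR, and the median log2 fold change was -0.11 in M and -0.13 in dcKO vehicle. Without the control-level libraries, 4 were lower and 1 higher in M, and 4 were lower and 0 higher in dcKO vehicle. Mfap4, Sstr2 and Neurod4 were lower in both comparisons, which are not separate replications. Sstr2, a somatostatin receptor, had -0.86 and -0.93. Hes6 and Rnd2, targets of Neurog2, had 0.14 and 0.29 in M in that fit and did not pass. Of 9 Notch receptors and effectors, 3 were higher in M without M replicate 2, Notch3, Hes5 and Hey1, 1 was lower, Rbpj, and 0 passed in dcKO vehicle.

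Of the neighbouring cell types, 13 genes of newborn and cortical neurons gave 4 lower and 0 higher calls in M without M replicate 2, and 12 radial glia genes gave 5 higher and 3 lower, against 5.57% of all genes higher and 6.88% lower. The ventral list gave 6 of 10 higher in that fit, and its summed level was 754 and 823 CPM in M replicates 3 and 4 against 569 to 669 CPM in C and 491 CPM in M replicate 2. The choroid plexus list gave no call there, and its sum was 133 CPM in C replicate 4 and 7.44 to 19.3 CPM in the other C libraries. Calls were fewer in dcKO vehicle against WT vehicle without the control-level libraries, where 259 of 16547 genes were higher and 390 lower. The neuron list gave 2 lower and 0 higher there, and the radial glia list 1 higher and 2 lower. The ventral list gave 1 higher and 0 lower. The part of these markers in the results was not tested.

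H3K27me3, the mark of Polycomb repression, was read from broad peaks within 2000 bp of each start or in the gene body. The number of libraries with the mark differed widely between the genes. At Eomes all 8 libraries had a peak, and at Neurog1 7 of 8. At Neurog2 6 of 8 had one, at Dll3 5, at Neurod1 4, at Insm1 3 and at Gadd45g 1. No library had a peak at Btg2, Tob1 or Mfng. Of 21951 protein-coding genes, 4.82% had a peak in all 8 libraries in such a window, 34.5% in at least 2 and 49.6% in none. All 5 transcription factors had peaks in at least 3 libraries, and of the 3 proliferation brakes 1 had a peak, in 1 library.

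Eomes lay within a region of 15824 bp, chr9:118474404-118490227 on mm10, that held the whole gene. Over this region, which runs past the gene window, the highest fold enrichment over input was 14.9, 5.15, 5.34 and 4.96 in C and 12.8, 7.93, 5.48 and 7.68 in K. In the window itself K replicate 2 was at 4.42. Over the region C replicate 1 was the highest and C replicate 4 the lowest, and in the window K replicate 2 was the lowest, so the groups overlapped in both. The log2 difference K against C was 0.27 ± 0.58 (limma adjusted p = 1). The region at Neurog1, chr13:56245956-56262632, was at 16.3, 5.30, 4.30 and 4.87 in C and at 11.6, 5.18 and 8.22 in K replicates 1, 3 and 4, with no peak in K replicate 2. Its log2 difference was -0.47 ± 0.67 (limma adjusted p = 1), and without K replicate 2 it was 0.28.

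The other regions were at Neurog2 (chr3:127625259-127635332), Neurod1 (chr2:79453904-79461020) and Insm1 (chr2:146220557-146223957), all over the start of the gene, and at Dll3 (chr7:28286017-28299231), which covered the 3′ part of the gene and not its start. Their log2 differences K against C were 0.05 ± 0.88, 0.72 ± 0.90, 0.55 ± 0.83 and 0.19 ± 0.68, and none passed (limma adjusted p = 1 for each). The values tested were the highest over each whole region, inside or outside the gene window. The Dll3 region held a peak in 8 libraries and the Neurod1 region in 5, against 5 and 4 libraries with a peak in the window. No region of the 6 passed, also at an unadjusted p of 0.05, against 0% of 22220 regions at an adjusted p of 0.05 in either direction and 0.198% higher and 0.0225% lower at an unadjusted p of 0.05. The median log2 difference was 0.23 over the 6 regions and 0.05 over all. The share of tags kept after removal of duplicates ran from 12.3% to 66.6% among the ChIP libraries. Peaks covered 65.2% to 78.7% of the Eomes window in the 3 that kept the most, C replicates 2 and 4 and K replicate 3. In the others the coverage did not follow that share, with 100% in K replicate 4, which kept 32.8%, 3.07% in K replicate 2, which kept 18.0%, and 8.24% in C replicate 3, which kept the least. The number of peaks ran from 6674 in K replicate 3 to 46000 in K replicate 4. K replicate 4 was the only library with a peak at Gadd45g, and it was highest at the Neurog2, Neurod1, Insm1 and Dll3 regions. The part of the share of tags and of the number of peaks in the results was not tested.

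**Figure D4:**
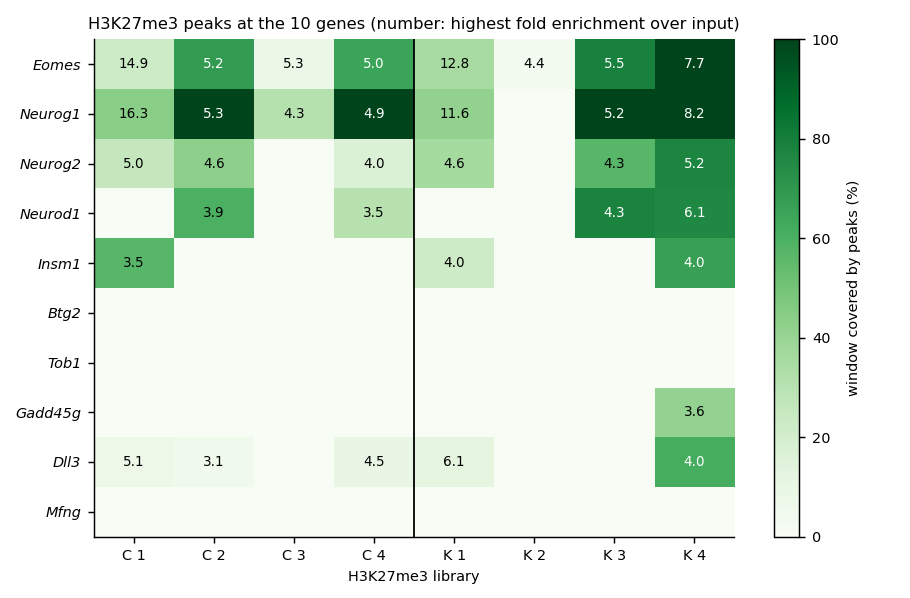
H3K27me3 peaks at the 10 genes (rows) in the 4 C and 4 K libraries (columns). Shading is the share of the gene window covered by peaks (%), and the number is the highest fold enrichment over input in the window. Blank cells hold no peak. Eomes and Neurog1 are marked in both groups, and Btg2, Tob1 and Mfng are blank in all 8 libraries.

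Set beside the RNA, the mark and the level did not run in 1 direction in control cortex. Both were read from whole cortex, so the mark and the RNA of a gene need not come from the same cells. Insm1 and Eomes, the highest genes per kilobase, had peaks in 1 and 4 of the 4 C libraries, and Neurog1, the lowest, had them in all 4. Of the 2 genes called lower in both knockout comparisons without the control-level libraries, Eomes was marked in every library and Mfng in none. These comparisons are not separate replications. Tob1, higher in every M library, had no peak in any library.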

How the data were processed

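RNA-seq of 19 and H3K27me3 ChIP-seq of 8 E17.5 cortex libraries was used, with 1 input library per ChIP group. The authors deposited raw read counts per Ensembl gene, made with STAR on mm10 and featureCounts; the annotation is not given in the sources used here, and the untreated tables hold 5 rows of unassigned reads, all at 0. The authors deposited broad peaks per library called by MACS 2.1.0.20140616 (broad, q-value 0.1) over the input pooled for each group, and each peak carries a fold enrichment (ratio), a pileup signal and a -log10 q-value.

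Counts were fitted with edgeR 4.0.16 (TMM, filterByExpr, robust quasi-likelihood), the untreated and the 12 treated libraries separately, with Benjamini-Hochberg adjustment over all genes tested and a limit of 0.05. Merged regions with peaks in at least 2 libraries were tested on log2 fold enrichment, with 1 where no peak was called, with limma 3.58.1. DESeq2 1.42.0 was an alternative. Groups came from the titles. Labels did not say that libraries came from separate litters, so p-values measure the spread between these libraries. The kit does not mark strand, and exons of Cerkl and Gm26755 overlap Neurod1 and those of Gm33460 overlap Eomes, so reads there cannot be told apart. The fits were tested on simulated data. The members and gene lists were chosen with earlier results of these data known. Genes named were the 10, their paralogues, list genes past the threshold, the 5 closest to Eomes, Smarcc1 and Smarcc2; list genes called only without the control-level libraries were named after their values were seen. Motifs were searched in Python 3.11.15.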

Additional observations from a re-analysis of the deposited data

Results flagged for a closer look

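In groups of 4 libraries, a library was noted when its gap to the nearest other library exceeded the 95% limit of Dixon's ratio of gap to range, which chance gives in about 1 of 20 groups. In dcKO vehicle, replicate 2 was the outlying library in 3 of the 10 genes. How often that library was outlying over all genes was not counted, so the number is not a trait of these genes. Replicate 2 gave the following values. This library was at 153 CPM in Eomes against 44.5 to 60.6 CPM in the other 3 libraries, at 31.5 CPM in Mfng against 10.4 to 13.7 CPM, and at 10.3 CPM in Dll3 against 15.3 to 16.3 CPM. The same library held Smarcc1 at 242 CPM, and M replicate 2, which has the same number, stood on the same side of its group in each of these genes.

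In C, replicate 3 was at 0.961 CPM in Neurog1 against 0.252 to 0.316 CPM in the other libraries, on 27 reads against 6 to 7.

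In the H3K27me3 data, C replicate 1 stood apart from the other C libraries at 3 genes. Its fold enrichment was 14.9 at Eomes against 4.96 to 5.34, 16.3 at Neurog1 against 4.30 to 5.30, and 3.52 at Insm1, where no other C library had a peak. This library kept 13.7% of its tags.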

How the results depend on the processing

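Leaving out 1 library at a time gave 0 to 4 of the 10 genes called in M against C, 0 to 2 in dcKO vehicle against WT vehicle, 0 to 1 in each comparison with the Wnt inhibitor, 0 to 0 for the difference between experiments, and 0 to 0 of the H3K27me3 regions. The 4 came without M replicate 2, and the 2 without dcKO vehicle replicate 2. DESeq2 and, in turn, no filter on low counts each called 1 gene in M against C, and DESeq2 called 1 in dcKO Wnt inhibitor against WT vehicle. With the libraries at 0.9 or more of the lowest control in both deleted genes left out, an alternative chosen after seeing the data, 3, 2 and 1 genes were called in dcKO vehicle against WT vehicle, inhibitor against vehicle and inhibitor against WT vehicle. At 0.8 the numbers were 4, 0 and 3.

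Values of single genes changed sign in 21 of 374 cases among the alternatives that left no single library out. At 0.8, inhibitor against dcKO vehicle turned to 0.0893 for Btg2, 0.048 for Neurod1, 0.0341 for Dll3 and 0.0691 for Tob1, and inhibitor against WT vehicle to 0.12 for Neurog2. With the lane as a term, Insm1 turned to -0.0272 in that comparison. In the difference between experiments, DESeq2 gave -0.0012 for Neurog2, and Mfng turned to 0.0224 with the replicate block, 0.0597 with same-numbered libraries as 1 block, and 0.0834 and 0.0838 without the libraries at the 0.9 and 0.8 limits. At these limits Gadd45g turned to -0.0123 and -0.0129, Dll3 to -0.0557 and -0.0561 and Insm1 to 0.0737 and 0.0736, and with same-numbered libraries as 1 block Dll3 turned to -0.0167 and Insm1 to 0.0512. With pileup in place of fold enrichment, H3K27me3 turned to -0.0354 at Dll3 and -0.0867 at Neurog2. The cause was not tested.

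Leaving out 1 library turned the sign in 55 of 668 cases. The range was -0.16 to 0.0136 for Btg2, -0.24 to 0.0125 for Dll3 and -0.30 to 0.0331 for Tob1 in inhibitor against dcKO vehicle. The range was -0.19 to 0.18 for Dll3, -0.71 to 0.55 for Eomes, -0.0978 to 0.17 for Gadd45g, -0.25 to 0.25 for Insm1, -0.51 to 0.57 for Mfng, -0.46 to 0.0479 for Neurod1, -0.20 to 0.81 for Neurog1 and -0.19 to 0.16 for Neurog2 in the difference between experiments. The range was -0.93 to 0.0828 for Eomes, -0.37 to 0.11 for Insm1 and -0.21 to 0.20 for Neurod1 in M against C. The range was -0.90 to 0.28 for Neurog1 and -0.49 to 0.61 for Neurog2 in H3K27me3. The range was -0.0281 to 0.0802 for Insm1, -0.27 to 0.11 for Mfng and -0.0921 to 0.12 for Neurog2 in inhibitor against WT vehicle. The range was -0.40 to 0.10 for Neurod1 in dcKO vehicle against WT vehicle.

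The replicate block changed no call of the 10 genes and none at the H3K27me3 regions (0 in each). Same-numbered libraries did not deviate together in every pair within an experiment, with r from -0.40 to 0.52 over genes, so the numbers were not taken as pairs. Over all genes in the 4 RNA comparisons, in the order above, 1, 1, 9 and 16 were called with edgeR, 0, 5, 7 and 189 with the replicate block, and 555, 120, 339 and 770 with DESeq2. Neurog1 had the fewest reads of the 10 genes, 3 to 35 in each library.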
